A study of Mus musculus with 2 samples.

Results

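The genes described here are the 5 subunits of the transcription factor NF-kappaB (Nfkb1, Nfkb2, Rel, Rela and Relb) and 5 members of the IkappaB family of inhibitors (Nfkbia, Nfkbib, Nfkbie, Nfkbiz and Bcl3). They were chosen by symbol as members of these families, with no threshold on a measured value, and all 10 were found among the 55536 annotated genes. Their RNA was measured by polyadenylated RNA sequencing of activated regulatory T cells, CD4 T cells that express Foxp3 and restrain immune responses. The cells were primary cells of an adult male mouse, 4 months old, of the strain Foxp3CreERT2 x Rosa26YFP, in which a Cre recombinase fused to an oestrogen receptor domain is driven from the Foxp3 locus and a yellow fluorescent protein reporter sits at Rosa26. The labels trace the cells to a bone marrow haematopoietic cell and name neither the tissue they were taken from nor how they were activated. There was 1 group, with 2 libraries labelled technical replicates 1 and 2 of biological replicate 1, here library 1 and library 2. No condition, genotype or second animal was available for comparison, so each SD below measures technical spread only. Each p-value compares the 2 libraries, and those of the exact binomial test take counting error alone as the spread.

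NF-kappaB acts as homodimers and heterodimers of its subunits, which share a Rel homology domain that binds DNA. RelA, c-Rel and RelB carry a transactivation domain, whereas Nfkb1 and Nfkb2 encode the precursors p105 and p100, which are processed to p50 and p52. In resting cells IkappaB proteins hold the dimers in the cytoplasm, and signalling through the T cell receptor, CD28 or members of the tumour necrosis factor receptor family leads to IkappaB phosphorylation and degradation, or, in the non-canonical arm, to p100 processing. In regulatory T cells c-Rel is known for its part in Foxp3 induction and RelA for the maintenance of the activated state, as established in mouse genetics.

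Estimated reads on genes came to 15076048 in library 1 and 14635787 in library 2. The labelled cell type was checked against marker genes. Foxp3 was at 23.82 TPM (a relative transcript level scaled by length) in library 1 and 20.91 TPM in library 2, and all 10 markers of T cells and regulatory T cells exceeded 10 TPM. Of 36 markers of 10 other cell classes, 25 were under 1 TPM and the highest mean was 12.4 TPM (Cd8b1). Their summed level was 38.05 TPM in library 1 and 43.86 TPM in library 2. Cd14, Itgax, Ncr1, Mzb1, S100a9, Ly6g, Ppbp and Cxcl12 had no reads in either library, and 3 reads would have given each of these genes at most 0.549 TPM.

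Sequence around the transcription start sites of these genes is shown first, because several of them are textbook targets of NF-kappaB itself and their RNA levels are the subject of what follows. RefSeq windows (mouse assembly GRCm38.p6, 250 bases before to 50 bases after the start) were on hand for 7 of the 10 genes: Nfkb2, Rel, Rela, Nfkbia, Nfkbib, Nfkbie and Bcl3. The kappaB consensus, the 10-base motif bound by NF-kappaB dimers, was searched by letters on both strands. It occurred in the windows of 5 of these 7 genes (71.4%), namely Nfkb2, Rel, Nfkbia, Nfkbie and Bcl3. Among all 27025 genes with a window, 9.55% held it. The 9 windows of the 7 genes had a median GC content of 65.7%, against 52.7% for all windows, and the part of base composition in the share was not tested. A match in letters is a description and does not show binding. The following stretches are written in the direction of transcription with the motif letters in capitals, neighbouring capitals can be overlapping matches, and positions are counted from the start site, negative before it.
Nfkbia, chr12:55492642-55492701, minus strand, motif starting at position -29: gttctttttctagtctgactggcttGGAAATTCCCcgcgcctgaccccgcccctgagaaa
Nfkbie, chr17:45555569-45555628, plus strand, motif starting at position -106: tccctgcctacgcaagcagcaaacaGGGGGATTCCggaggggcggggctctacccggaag
Rel, chr11:23771026-23771086, minus strand, motif starting at position -92: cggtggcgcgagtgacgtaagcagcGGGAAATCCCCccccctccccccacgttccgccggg
Nfkb2, chr19:46304673-46304760, plus strand, motifs starting at positions -39 and -11: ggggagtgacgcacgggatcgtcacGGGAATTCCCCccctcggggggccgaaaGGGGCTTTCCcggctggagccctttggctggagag
In Bcl3 the motif GGGAAGTCCC began 3 bases into the transcript (chr7:19822744-19822753). Nfkb2 had further windows at 2 downstream starts, which held matches as well. The windows of Rela and Nfkbib held no match to these letters.

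In both libraries each of the 10 genes had a level of at least 10 TPM. That level was reached by 13.0% of all genes and 29.5% of protein-coding genes, and 1 TPM by 23.9% and 46.2%. Their median log2(TPM + 1), taken on the mean of both libraries, was 4.69, against 2.96 over the 17271 genes with 10 or more reads in all and 3.85 over the 13251 genes at 1 TPM or above in each library. In RNA from a population of cells, fewer cells with a transcript and less of it per cell cannot be told apart. Nfkbia was the most abundant member by a wide margin and the only one above 100 TPM, a level that 2.38% of all genes and 5.25% of protein-coding genes reached. The level of a gene in TPM depends on the transcript length assigned to it, and Bcl3 is the member for which this matters to the threshold, as given with its transcripts.

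Among the subunits, Rela and Nfkb1 were the high pair and Nfkb2, Rel and Relb the low group. Rela (chr19:5637483-5648130, plus strand), which encodes the transactivating p65 subunit, was at 72.66 TPM in library 1 and 81.44 TPM in library 2, a mean of 77.0 ± 6.21 TPM (SD, n = 2). Nfkb1 (chr3:135584655-135691547, minus strand), which encodes p105 and p50, was at 73.06 TPM and 76.47 TPM, a mean of 74.8 ± 2.41 TPM. The ranges of Rela and Nfkb1 overlapped, so their order was not resolved. Together these partners of the classical p50 and p65 dimer made up 39.3% (Nfkb1) and 40.4% (Rela) of the summed TPM of the subunits.

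Nfkb2 (chr19:46304320-46312385, plus strand), which encodes p100 and p52, was at 14.87 TPM in library 1 and 13.14 TPM in library 2. Rel (chr11:23736847-23770970, minus strand), the gene of c-Rel, was at 14.71 TPM and 12.34 TPM. Relb (chr7:19606217-19629438, minus strand), whose product pairs with p52 in the non-canonical arm, was at 10.99 TPM and 11.19 TPM. Nfkb2 and Rel overlapped in level, and both lay above Relb in each library. The non-canonical pair, Nfkb2 and Relb, made up 13.2% ± 0.974 (SD, n = 2) of the summed subunit level. The level of Rela was 4.94 times that of Rel in library 1 and 6.60 times in library 2, and the level of Nfkb1 was 4.91 and 5.82 times that of Nfkb2. The second ratio fell to 2.86 and 3.31 with all reads placed on principal transcript lengths. A second deposited table holds whole-number counts on the older GENCODE release M4. With these counts divided by the effective gene lengths of release M21, Nfkb1 over Nfkb2 was 2.37 and 2.74. Rela over Rel was then 18.1 and 17.4. On that scale Rel lay below Relb, at means of 11.5 and 35.8 TPM. Nfkb2 with Relb made up 21.6% and 19.4% of the subunits there. In the M4 counts themselves Rel had 184 reads in library 1 and 196 in library 2, and Relb had 189 and 168.

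Among the inhibitors, Nfkbia (chr12:55489410-55492647, minus strand), which encodes IkappaB-alpha, was at 387.68 TPM in library 1 and 396.81 TPM in library 2, a mean of 392 ± 6.46 TPM (SD, n = 2). It ranked 279 among 22028 protein-coding genes and took 79.0% of the summed TPM of the 5 inhibitors. Nfkbib (chr7:28758251-28767512, minus strand), which encodes the cytoplasmic inhibitor IkappaB-beta, was at 42.65 TPM and 43.07 TPM. Nfkbie (chr17:45555703-45563169, plus strand), which encodes IkappaB-epsilon, was at 21.38 TPM in library 1 and 30.19 TPM in library 2. Relative to its level, it was the inhibitor whose libraries lay farthest apart.

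The other two inhibitors are nuclear. Nfkbiz (chr16:55811375-55838899, minus strand), which encodes the nuclear cofactor IkappaB-zeta, was at 23.06 TPM and 24.53 TPM. Bcl3 (chr7:19808462-19822770, minus strand), a nuclear IkappaB protein that binds p50 and p52 homodimers, was at 12.05 TPM and 11.64 TPM. Nfkbie and Nfkbiz overlapped in level, while Bcl3 lay below both in each library. From highest to lowest mean the 10 genes ran Nfkbia, Rela, Nfkb1, Nfkbib, Nfkbie, Nfkbiz, Nfkb2, Rel, Bcl3 and Relb. The ranges overlapped in 3 pairs of neighbours, Rela with Nfkb1, Nfkbie with Nfkbiz and Nfkb2 with Rel.

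**Figure D1:**
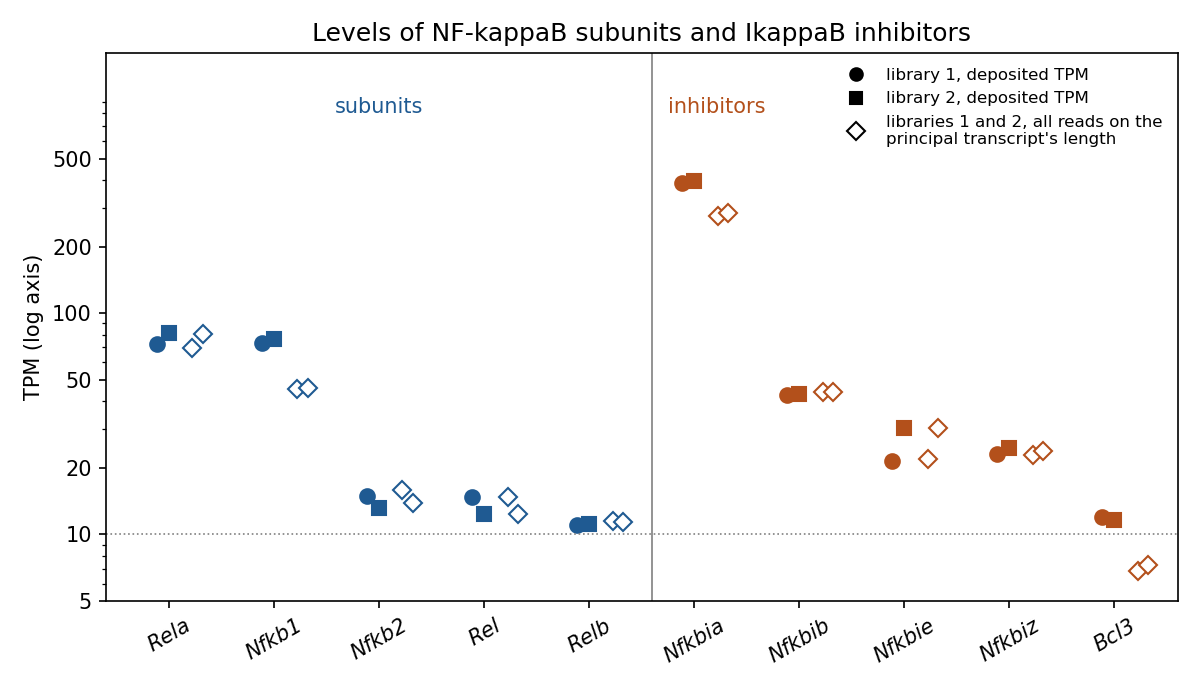
Level of each gene in TPM on a log axis, subunits left and inhibitors right, with filled circles for library 1 and filled squares for library 2. Open diamonds give the same libraries with all reads of a gene placed on the length of its principal transcript; Nfkbia stays highest, at 275.6 and 282.8 TPM, and Bcl3 falls below the dotted line at 10 TPM.

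RNA of the 5 IkappaB family members, called inhibitors here by family and not by a measured function, exceeded subunit RNA. The summed level of the 5 inhibitors was 486.8 TPM in library 1 and 506.2 TPM in library 2, and that of the 5 subunits was 186.3 TPM and 194.6 TPM. The ratio of the sums was 2.61 in library 1 and 2.60 in library 2. Nfkbia carried this ratio: its level alone was 2.08 and 2.04 times the summed subunits, whereas the other 4 inhibitors together came to 0.532 and 0.562 times. The level of Nfkbia was 9.09 and 9.21 times that of Nfkbib, and 18.1 and 13.1 times that of Nfkbie. With the M4 counts divided by the effective gene lengths of release M21, Nfkbia was 4.01 and 4.21 times Nfkbib. The M4 counts themselves were 1738 and 1727 for Nfkbia and 491 and 461 for Nfkbib. These are ratios of RNA levels, and protein was not measured.

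The annotation gives the 10 genes 56 transcripts, and 39 of them had reads assigned in at least 1 library. The deposited transcript estimates divide each gene's reads among overlapping transcripts, so a share rests on the bases that tell transcripts apart, which can be few. Of the 9 genes with several transcripts, the leading one by mean share of TPM was annotated protein-coding in 8, beside 84.1% of 6143 protein-coding genes of at least 10 TPM with several transcripts. By TPM the same transcript led in both libraries in 8 of the 9, all but Relb, beside 88.6% of those 6143. By reads it did so in 7, all but Relb and Nfkb2, beside 91.7%.

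Nfkb1 had the smallest share of reads on complete coding transcripts of the 10 genes, 7.12% in library 1 and 5.56% in library 2. Nfkb1-201, the 4117-base transcript that encodes the whole precursor, received 163.21 reads in library 1 and 121.77 reads in library 2, out of 2292 and 2190 reads of the gene. It made up 4.43% and 3.34% of the gene's TPM. Nfkb1-203, a coding model whose 5′ end is incomplete, led with 776.67 and 716.61 reads, or 37.19% and 34.74% of TPM.

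A model annotated for nonsense-mediated decay, Nfkb1-207, received 475.35 and 451.36 reads, and Nfkb1-204, which ends in a retained intron, received 529.34 and 490.98 reads. Both libraries gave the same ranking of these models. Nfkb1-203 lacks a coding exon of 178 bases (chr3:135589327-135589504, minus strand) that Nfkb1-201 holds, which is the feature that separates them near the 3′ end. The exon and the junction that skips it are shown in the direction of transcription, with the exon, and the 10 bases across the skipping junction, in capitals.
Nfkb1-201, the exon: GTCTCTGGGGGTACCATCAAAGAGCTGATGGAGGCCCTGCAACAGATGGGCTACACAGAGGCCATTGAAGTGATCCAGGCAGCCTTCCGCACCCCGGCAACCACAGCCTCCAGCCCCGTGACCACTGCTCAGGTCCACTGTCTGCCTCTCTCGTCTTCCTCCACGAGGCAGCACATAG
Nfkb1-203, the junction: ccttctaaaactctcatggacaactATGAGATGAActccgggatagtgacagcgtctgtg
Of all 50-base windows, the length of a read, only 47 were found in Nfkb1-203 and not in Nfkb1-201, against 1810 in the reverse direction. Against all 10 Nfkb1 transcripts, however, Nfkb1-201 held only 2 windows of its own and Nfkb1-203 held 47. That comparison includes Nfkb1-206 and Nfkb1-209, which had no reads in either library. The low share of Nfkb1-201 is a model estimate. Retained-intron models held 37.86% of the gene's reads in library 1 and 40.25% in library 2. Among them, Nfkb1-204 held 1825 windows of its own out of 3334. Nfkb1-208, with 257.15 and 223.74 reads, held 3984 out of 4100. With all reads of the gene placed on the 4117 bases of Nfkb1-201, an alternative chosen after the data were seen, Nfkb1 came to 45.43 and 46.0 TPM. It then lay below Rela without overlap.

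**Figure D2:**
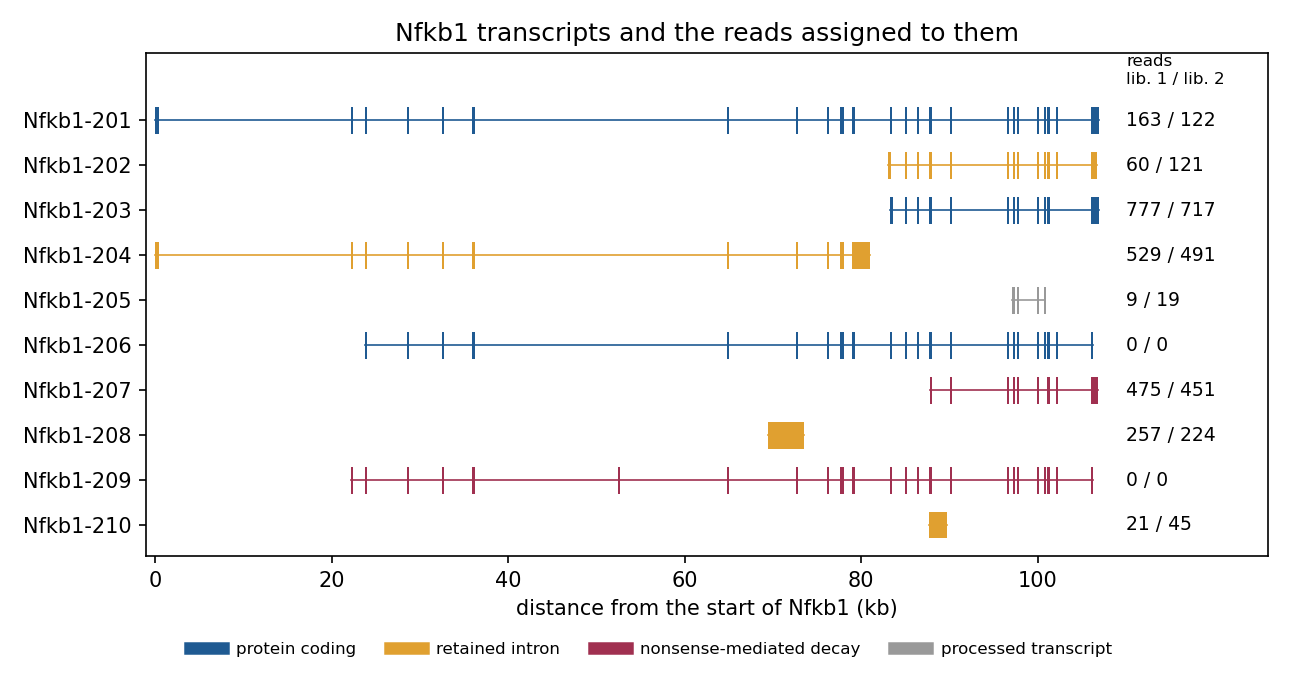
Exons (blocks) of the 10 annotated Nfkb1 transcripts against distance from the gene's start in kilobases, coloured by annotated type, with the reads assigned in library 1 and library 2 at the right. The incomplete model Nfkb1-203 holds 777 and 717 reads, while full-length Nfkb1-201 holds 163 and 122.

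Nfkbia has 2 transcripts, the coding Nfkbia-201 and the shorter Nfkbia-202, annotated as a retained intron. Nfkbia-201 received 3645.86 reads in library 1 and 3542.61 reads in library 2, and Nfkbia-202 received 1580.14 and 1517.39 reads. By reads the coding transcript held 69.76% and 70.01% of the gene. By TPM, which divides by the length of each transcript, Nfkbia-202 led narrowly with 50.41% and 50.11%. It is the 1 member whose leading transcript by TPM was not coding. The bases of the first intron that Nfkbia-202 keeps (chr12:55491779-55491810, minus strand) are in capitals below and include all that separates it from Nfkbia-201 at its start.
Nfkbia-202: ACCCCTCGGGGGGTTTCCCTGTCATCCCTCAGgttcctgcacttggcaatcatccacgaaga
Only 32 windows of 50 bases were particular to Nfkbia-202, against 909 for Nfkbia-201. With all reads on the length of Nfkbia-201 the gene came to 275.6 and 282.8 TPM, still the highest of the 10.

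Bcl3 had few reads, 153 in library 1 and 152.94 in library 2. The full coding Bcl3-201 received 85.96 and 95.86 of them, and the incomplete coding model Bcl3-203 received 56.0 and 51.18. By TPM the shorter Bcl3-203 led with 53.08% and 53.2%. With all reads on the length of Bcl3-201, Bcl3 came to 6.85 and 7.25 TPM, so that it no longer reached 10 TPM and became the lowest of the 10 genes.

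Relb had 307 reads in library 1 and 289 in library 2, with a different leading transcript in each. Relb-202 received 258.82 reads in library 1 and 0 reads in library 2, whereas Relb-201 received 0 and 212.11 reads. The transcripts differ by a coding exon of 9 bases (chr7:19622926-19622934, minus strand), in capitals in the first of these lines and left out at the capitals of the second.
Relb-202: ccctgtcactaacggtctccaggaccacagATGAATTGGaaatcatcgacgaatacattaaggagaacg
Relb-201: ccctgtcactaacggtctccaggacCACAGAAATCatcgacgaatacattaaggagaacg
Compared with each other, Relb-202 held 56 windows of 50 bases that Relb-201 lacks, and Relb-201 held 47 that Relb-202 lacks. Against all 10 Relb transcripts, neither held a window of its own. The swap is a difference between estimates of 1 sample's libraries, and the reads over the exon were not available to test it.

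Nfkbie had the widest ratio between libraries of the 10 genes, and the estimate of 1 transcript moved by about the same number of reads. Nfkbie-203 received 29.8 reads in library 1 and 228.93 reads in library 2, a gain of 199.13, while the gene as a whole gained 199. Nfkbie-201 received 529.93 and 552.89 reads. Nfkbie-203 uses a later splice acceptor in the last exon and thereby leaves out 68 bases (chr17:45562002-45562069, plus strand). These bases are in capitals in the first line, and capitals in the second mark the junction that skips them.
Nfkbie-201: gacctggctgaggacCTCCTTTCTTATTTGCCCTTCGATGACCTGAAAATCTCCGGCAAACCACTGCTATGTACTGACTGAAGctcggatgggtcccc
Nfkbie-203: gacctggctgAGGACCTCGGatgggtcccc

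Of the remaining genes, Nfkb2 was the one without a stable leader by reads. Rela-201 held 93.32% of the TPM of Rela in library 1 and 96.79% in library 2, and Nfkbib-202 held 95.5% and 96.33% of that of Nfkbib. Nfkbiz-204 led Nfkbiz with 714.2 and 838.01 reads. All reads of Nfkb2 fell on complete coding transcripts, although they were divided differently: Nfkb2-204 received 333.05 and 166.93 reads, Nfkb2-206 received 200.51 and 187.54, and Nfkb2-201 received 0 and 147.4. Rel has 1 annotated transcript, of 7466 bases, of which 72.6% lie after the coding part.

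**Figure D3:**
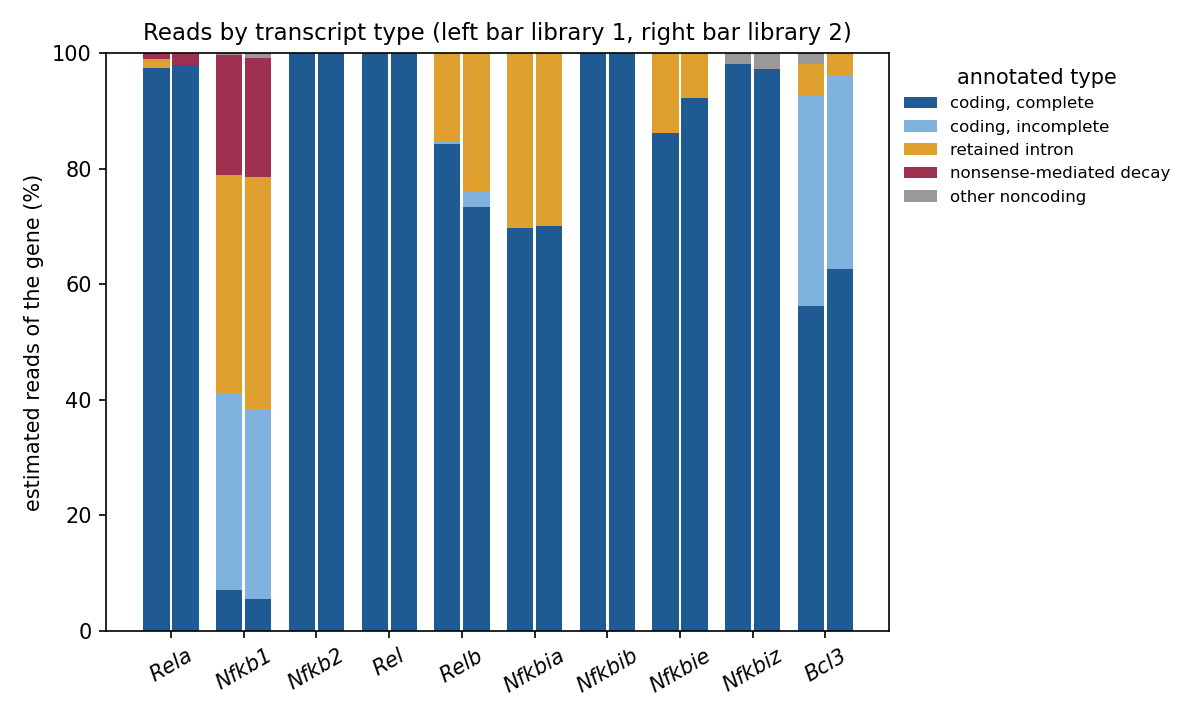
Share of each gene's estimated reads, in percent, by annotated transcript type, with library 1 as the left bar and library 2 as the right bar of each pair. Complete coding transcripts hold over 97% of the reads of Rela, Nfkb2, Rel, Nfkbib and Nfkbiz, 69.8% and 70.0% in Nfkbia, and 7.12% and 5.56% in Nfkb1.

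Each gene was compared between the libraries by an exact two-sided binomial test of its rounded reads, adjusted by Benjamini-Hochberg over 17271 genes. The test takes counting error alone as its spread and compares the libraries, not conditions. At an adjusted p under 0.05 it called 4 of the 10 genes, where 24.3% of all genes tested were called. Of genes with 300 or more reads in all, 33.7% were called. Nfkbie and Rela were higher in library 2, where 12.7% of all genes were called, and Rel and Nfkb2 were higher in library 1, where 11.6% were called.

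Nfkbie had 649 reads in library 1 and 848 in library 2, a ratio scaled to total reads of 1.35 (95% exact counting interval 1.21 to 1.49), with an adjusted exact p of 3.522e-07. Rela had 2302 and 2513 reads, a ratio of 1.12 (1.06 to 1.19), with an adjusted exact p of 0.000567. Both differences were larger than counting error.

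Rel had 1353 and 1071 reads, a ratio of 0.815 (0.752 to 0.884), with an adjusted exact p of 1.218e-05. Nfkb2 had 606.36 and 501.88 reads, a ratio of 0.853 (0.757 to 0.962), with an adjusted exact p of 0.0403. Nfkb2 was not called with TMM library sizes, where its adjusted exact p was 0.0554. Its exons share 11.6% of their bases with AC114539.1, an RNA from the opposite strand with 309.39 and 357.57 reads, and without strand information reads over these bases cannot be told apart. The other 6 genes, Nfkb1, Relb, Nfkbia, Nfkbib, Nfkbiz and Bcl3, did not pass, with adjusted exact p from 0.795 for Nfkb1 to 0.996 for Nfkbia. Bcl3, the gene with the fewest reads, had the ratio 1.03 with a 95% counting interval of 0.818 to 1.30, and differences within it were not detectable at this depth.

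The table of whole-number counts on GENCODE release M4 holds fewer reads, 3474097 in library 1 and 3471321 in library 2. In that table none of the 10 genes was called by the same exact binomial test, 1 (Nfkbie) had an unadjusted p under 0.05, and 9.95% of 10978 genes were called. Rel changed direction there, with 184 reads in library 1 and 196 in library 2, a log2 ratio of 0.09 and an adjusted exact p of 0.842. Rel also kept the smallest part of its reads in that table, 13.6% and 18.3%, where the median gene kept 40.1% and 40.2%. Nfkb2 kept 74.0% and 78.3% of its reads and Nfkbib 75.4% and 74.7%. Why genes kept different shares was not tested.

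**Figure D4:**
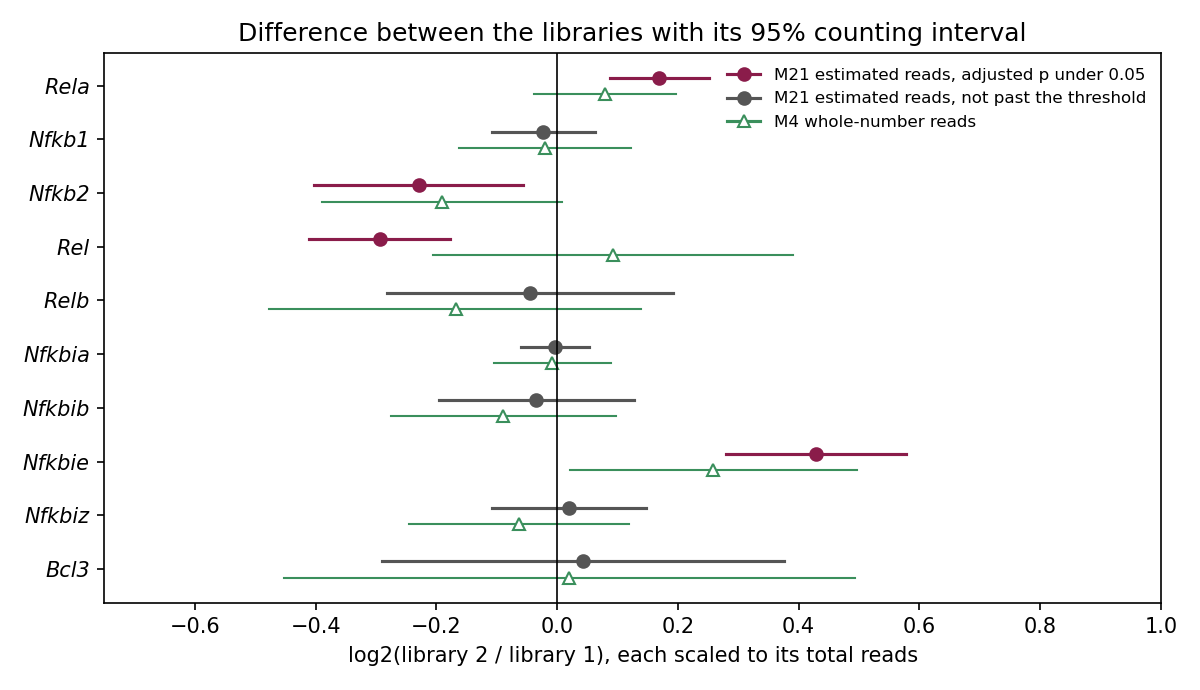
Log2 ratio of reads in library 2 over library 1, each scaled to its total, with 95% exact counting intervals; circles are M21 estimates (GENCODE release M21, coloured where the adjusted p is under 0.05) and triangles are the M4 whole-number counts. Nfkbie, Rela, Rel and Nfkb2 are coloured, and the Rel triangle lies on the other side of 0 from its circle.

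The members were set beside 92 other genes of the pathway, grouped in 9 lists, of which 68 (73.9%) reached 10 TPM in both libraries. Of the 88 that were tested between the libraries 32 (36.4%) were called, 21 higher in library 2 and 11 higher in library 1. Of all genes tested 24.3% were called, and of those with 1000 or more reads 39.5%. At the top of the pathway, 12 of 17 receptors reached 1 TPM in both libraries. The highest were Tnfrsf4 (OX40) at 613.7 TPM, Tnfrsf18 (GITR) at 579.5 TPM and the costimulatory receptor Cd28 at 228.0 TPM, as means of both libraries. The lowest was Tnfrsf11a (RANK) at 0.03 TPM, and Ltbr, a receptor of the non-canonical arm, was at 0.11 TPM. Tnfrsf1b, the type 2 receptor for tumour necrosis factor, was at 76.3 TPM and was called higher in library 2, while Il18r1 and Il1rl1 were called higher in library 1.

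All 8 genes of the antigen receptor arm reached 10 TPM. Apart from Cd28, the highest were the kinase Csnk1a1 at 123.2 TPM and Prkcq, a protein kinase C that acts downstream of the T cell receptor, at 105.0 TPM. Prkcq was called higher in library 2, and Csnk1a1, Pdpk1 and the protease Malt1 in library 1. All 13 genes of the canonical kinase arm reached 1 TPM and 10 reached 10 TPM. They were led by the ubiquitin-conjugating enzyme Ube2n at 262.2 TPM, the kinase Ikbkb at 96.9 TPM and the linear ubiquitin ligase subunit Sharpin at 83.2 TPM, and Tab3 was lowest at 1.61 TPM. Of the kinase complex itself, Chuk was at 29.7 TPM and Ikbkg at 28.6 TPM. In this arm 4 genes were called higher in library 2 (Ikbkb, Ikbkg, Tab1 and Sharpin) and 2 higher in library 1 (Chuk and Rbck1).

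In the non-canonical arm, the ubiquitin ligases Birc3 at 88.9 TPM, Birc2 at 76.1 TPM and the adaptor Traf2 at 46.3 TPM were highest. Map3k14, the kinase NIK that triggers p100 processing, was at 18.9 TPM, and Traf3 was lowest at 10.3 TPM. Birc3 and Map3k14 were called higher in library 2 and Chuk in library 1. All 7 genes for IkappaB degradation reached 10 TPM, with Nedd8 at 284.7 TPM, Rbx1 at 276.2 TPM and Skp1a at 226.0 TPM. The F-box proteins that recognise phosphorylated IkappaB were the lowest, Btrc at 21.2 TPM and Fbxw11 at 17.1 TPM. Btrc was called higher in library 2, and Skp1a and Cul1 in library 1.

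Of 12 upstream negative regulators 7 reached 10 TPM in both libraries. The highest were Tax1bp1 at 185.9 TPM, Pdlim2 at 103.3 TPM and Tnip1 at 67.8 TPM, and Zc3h12a was lowest at 3.65 TPM. Tnfaip3, the ubiquitin-editing enzyme A20, was at 28.55 TPM in library 1 and 26.1 TPM in library 2. Pdlim2 and Tnip1 were called higher in library 2 and Otulin in library 1. Among 5 other modulators of NF-kappaB, the COMM domain gene Commd1 was at 69.9 TPM, Nfkbid (the nuclear IkappaB-NS) at 26.1 TPM and the NF-kappaB activating protein gene Nkap at 22.6 TPM. The repressing factor gene Nkrf was lowest at 1.72 TPM. Only Nkap of these 5 was called, higher in library 2. Nfkbid was thus at a level like that of Nfkbie and Nfkbiz.

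Of 8 partners of nuclear NF-kappaB 6 reached 10 TPM in both libraries. The ribosomal protein gene Rps3 was far above the rest at 2950 TPM and was followed by Akap8 at 95.4 TPM. The acetyltransferase gene Crebbp was at 45.5 TPM. Hdac3 and Akap8 were called higher in library 2 and Rps3 in library 1.

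Of 22 textbook target genes 20 reached 1 TPM and 18 reached 10 TPM in both libraries, led by the chemokine Ccl5 at 371.0 TPM, the interleukin-2 receptor chain Il2ra at 239.1 TPM and Irf1 at 193.9 TPM. The adaptor Traf1 was at 177.2 TPM and the antiapoptotic regulator Cflar at 127.8 TPM. Cytokine genes ranged widely, with Tnf at 16.28 TPM in library 1 and 13.81 TPM in library 2, Il6 at a mean of 0.055 TPM and Il1b with no reads, where 3 reads would have meant at most 0.338 TPM. Of the 20 tested, 8 were called higher in library 2 (Birc3, Traf1, Icam1, Ccl5, Cxcl10, Tnip1, Irf1 and Myc) and 0 higher in library 1 by the exact binomial test, where 12.7% and 11.6% of all genes were called. Both directions together, 40.0% of the 20 were called, beside 24.3% of all genes tested and 39.5% of those with 1000 or more reads. At an unadjusted exact p under 0.05 the counts were 9 higher in library 2 and 2 higher in library 1. Of the monocyte and macrophage markers, Lyz2 (9.66 and 42.0 reads) and Csf1r (2.25 and 11.85 reads) were also called higher in library 2. Itgam went the other way, with a log2 ratio of -0.574, and was not called (adjusted exact p of 0.3534). Cd14 had no reads, and Adgre1 had too few reads to be tested. The 5 markers of that class summed to 1.36 TPM in library 1 and 3.68 TPM in library 2. Among the markers of other classes, Cd4 (6043 and 7884 reads), Lck, Cd3e, Ctla4 and Cd8b1 were called higher in library 2. Ikzf2 and Zbtb46 were called higher in library 1. The part of any of these markers in the target genes' difference was not tested. In 1 group there is no unstimulated sample to compare with, so these levels do not show induction.

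**Figure D5:**
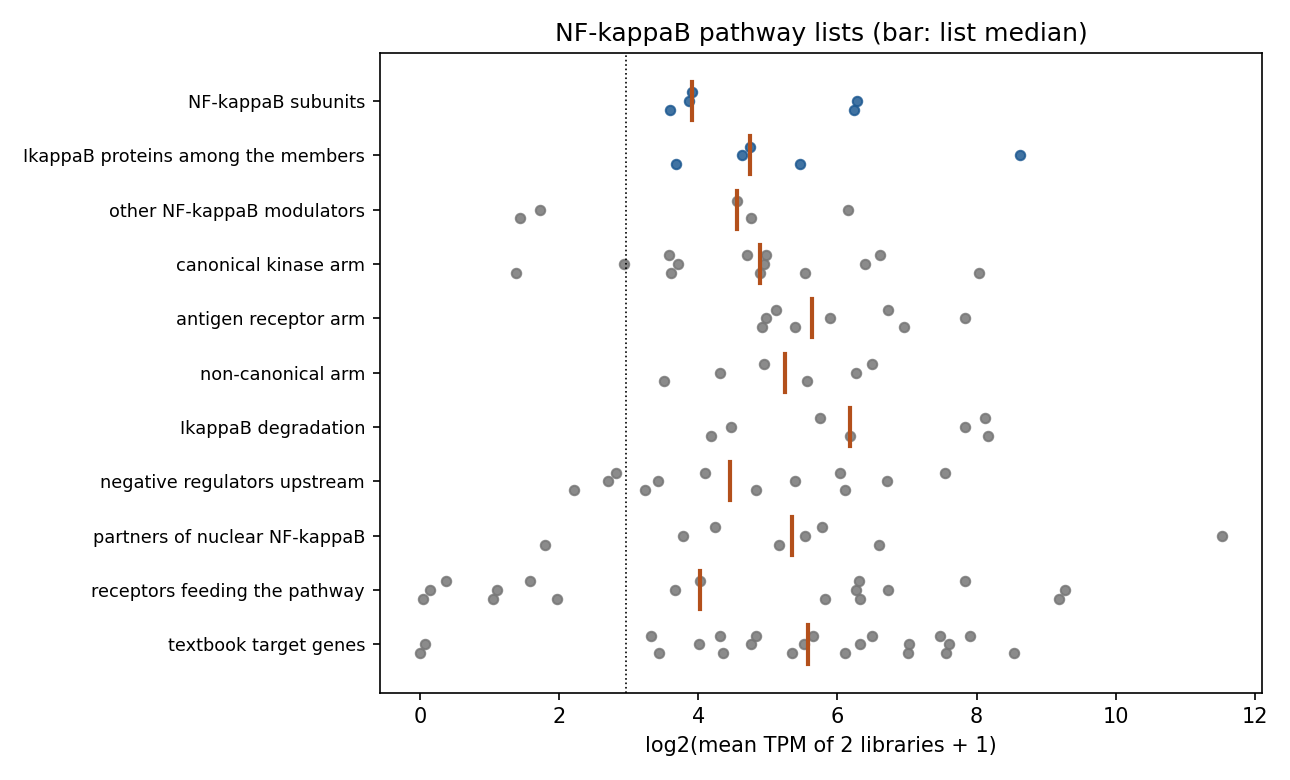
Mean level of each gene on the log2(TPM + 1) scale, 1 point per gene and 1 row per list, with list medians as bars, members in blue and the dotted line at 2.96, the median of all genes tested. Subunits have a median of 3.91 and the IkappaB members 4.74, and the receptor list spans from near 0 to Tnfrsf4.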

How the data were processed

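Per the file headers and labels, each library has gene and transcript tables on mm10 with GENCODE release M21. The deposited expected count estimates reads per gene or transcript and need not be whole. The deposited TPM divides it by effective length and scales the sum to a fixed total, and the deposited FPKM, which was not used in a result, scales by length and depth. The deposited isoform percent gives each transcript as a part of the TPM of its gene. A whole-number count table, also deposited, is on GENCODE release M4, and 22195 of its identifiers matched. Not given in the sources used here are the quantifier, the counter, its filters and the strandedness.

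Rows naming no gene (0.142% and 0.186% of reads) entered neither library sizes nor tests. Expected counts were rounded, and genes with a summed count of 10 or more were tested by a two-sided exact binomial test against library 2's share of reads (49.3%), with Benjamini-Hochberg adjustment at 0.05. The test was tried on simulated counts that held counting error alone, so the simulation does not cover a wider spread between libraries. Log2 ratios add 0.5 to each count. Intervals and the limit of 3 reads cover counting error only. Alternatives were TMM (edgeR 4.0.16, R 4.3.3), DESeq2 1.42.0 size factors, an edgeR exact test at a dispersion of 0.01, other filters and thresholds, posterior mean TPM, the M4 counts and each library alone. Levels from the M4 counts were those counts divided by M21 effective lengths. Placing all reads on the principal transcript's length was chosen after seeing the data. Other steps used Python 3.11.15, pandas 2.3.3 and scipy 1.17.1. Sequences came from GENCODE M21 transcripts and RefSeq (GRCm38.p6). Coordinates are mm10, 1-based.

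The 10 members, taken by family, and 11 lists were chosen with earlier results of these data known. Named genes are all members and, per list, the lowest gene, the 3 highest and any others, except a few that are not reported here.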

Additional observations from a re-analysis of the deposited data

How the results depend on the processing

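The count of genes called different between libraries was 4 of 10 with DESeq2 size factors or a minimum of 100 reads, and 3 with TMM, without a filter or at an adjusted p under 0.01. The gene lost was Nfkb2 each time. The count was 0 with the M4 counts (9.95% of all genes called, 1 of the 10 at an unadjusted p under 0.05), and the cause was not tested. It was also 0 with the edgeR exact test at a dispersion of 0.01 (2.85%, 1 of the 10 at an unadjusted p under 0.05). That test kept the main counts and library sizes and allowed a spread beyond counting error. Rel reversed with the M4 counts, to a log2 ratio of 0.092 with an adjusted exact p of 0.842. Of the 70 member ratios over these settings 57 kept direction and call, and 10 kept direction and lost the call. Another 2 that were not called changed sign (Nfkbia to 0.01 with TMM, Nfkbiz to -0.06 with the M4 counts). Settings that changed only the filter, the threshold or the dispersion kept the counts and library sizes, so direction was fixed there by construction. It could change only with TMM, DESeq2 size factors or the M4 counts. The inhibitor to subunit ratio of 2.61 became 2.53 with posterior mean TPM and 2.28 with M4 counts divided by M21 effective lengths. It was 2.36 on principal transcript lengths and 2.42 with the 3 cytoplasmic inhibitors only, and 2.60 to 2.61 with each library alone. On principal transcript lengths 9 genes reached 10 TPM. At a level of 100 TPM 1 gene passed in place of 10, by construction. With each library alone 10 genes reached 10 TPM, by construction, since the main count asks for that level in both. With each alone, 43 to 45 of 45 pairs kept their order. With the M4 counts divided by M21 effective lengths, 39 pairs kept it. The members' median log2(TPM + 1) exceeded that of genes tested by 1.72 and that of genes at 1 TPM or more by 0.84. No paired analysis was possible because there was 1 group. Depth limits Bcl3 most, with 153 reads in library 1.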

Other observations

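Sequence shared with transcripts of other genes in the same direction was low for these members, and opposite-strand matches were not counted. Of the 50-base windows in the transcripts of Nfkb1, 0.37% also occurred in transcripts of other genes, and the share was 0.12% for Rel and 0.65% for Relb. Nfkb2, Rela, Nfkbia, Nfkbib, Nfkbie, Nfkbiz and Bcl3 had no such window. Overlap on the opposite strand was found for 3 genes: besides Nfkb2, Nfkbib shares 314 exonic bases with Ccer2, which had 0 reads in both libraries, and Bcl3 shares 161 with Gm16175, which had 0 and 2.06 reads. Nfkbib also shares 42 bases with Sirt2, which had 1298 and 1309 reads. Besides AC114539.1, Nfkb2 shares 299 bases with Psd, which had 35.24 and 34.55 reads.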
